A study of Mus musculus with 14 samples.

Results

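Small leucine-rich proteoglycans (SLRPs) are secreted matrix proteins with a core of leucine-rich repeats, and most of them carry chondroitin, dermatan or keratan sulfate chains. They bind collagen fibrils, set fibril spacing and thickness, and hold growth factors such as TGFβ in the matrix. In the fetal heart they are known mainly as products of fibroblasts that descend from the epicardium. The genes described here were chosen by name, and all 10 were listed among the 15894 genes measured: Dcn, Bgn, Aspn and Ecm2, Fmod, Lum, Prelp and Omd, Ogn, and Podn.

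RNA was measured in epicardium and subepicardium peeled from the ventral or dorsal side of E16.5 mouse hearts. Every library was a pool of 2 hearts, and the labels gave the genotype Tbx18Cre for all libraries. This allele drives Cre in the epicardium, and cells derived from the epicardium inherit the recombination. The study treated these hearts as wild type. Females gave 3 ventral and 3 dorsal libraries, and males gave 4 ventral and 3 dorsal ones. Male pool 7 had a further library labelled dorsal in its title and ventral in its tissue field, so it was kept out of the comparisons. Female pools were numbered 1 to 3 and male pools 4 to 7, so sex and the preparation of the libraries cannot be told apart. Ventral and dorsal libraries of one number are called one pool here, though the methods do not state that they came from the same hearts. The replicates were pools of different hearts from at least 3 litters, and p-values measure the spread between such pools.

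The libraries held 13918995 to 25221314 reads. Values are normalized CPM, reads scaled to a library size that normalization had adjusted between libraries, on which 3 reads are worth 0.135 to 0.253. All 10 epicardial and mesothelial markers searched were listed, and none of 6 chondrocyte markers was listed. The summed fibroblast markers ran from 2433 to 4204 in female dorsal libraries, 10479 to 20046 in female ventral, 6576 to 11073 in male dorsal and 10118 to 23406 in male ventral. The summed epicardial markers ran from 289 to 659, 1809 to 2953, 1677 to 4452 and 2072 to 6365 in the same order. The female dorsal libraries thus held the least of both marker sets, and in these bulk layers fewer cells of a type and less RNA per cell cannot be told apart.

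The 10 genes fell into 3 groups of neighbours and 2 single loci. On GRCm38, Dcn (chr10:97479609-97518143) and Lum (chr10:97565128-97572703) lay 47.0 kb apart on the same strand. Prelp (chr1:133910304-133921414, minus strand) and Fmod (chr1:134037254-134048277, plus strand) lay back to back, 116 kb apart. Ecm2 (chr13:49504810-49532789), Aspn (chr13:49544443-49567565), Omd (chr13:49582462-49592822) and Ogn (chr13:49608046-49624501) formed a row of 4 genes on the plus strand within 119.7 kb. Podn (chr4:108014791-108096445, minus strand) and Bgn (chrX:73483602-73495933, plus strand) stood alone. Cenpp, a centromere protein gene on the opposite strand, runs across the chromosome 13 row, but shares 7 exon bases with Aspn and none with the others; 9.68% of the exon bases of Prelp are shared with the antisense gene Gm15851, and without a stated strand setting those reads cannot be told apart.

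Expressed per kilobase of the principal transcript, decorin led the family by a wide margin. Dcn, which encodes the dermatan sulfate proteoglycan that coats collagen I fibrils, had a mean of 819 normalized CPM per kb over the 13 libraries of settled region, with a range of 288 to 1435. Lum (lumican, a keratan sulfate proteoglycan of fibrils) followed at 131, then Aspn (asporin, a relative of decorin with a run of aspartates) at 89.0, Bgn (biglycan, which carries a pair of chains and is an agonist of Toll-like receptors) at 83.6 and Ogn (osteoglycin, also called mimecan) at 80.9. Fmod (fibromodulin, which modulates fibril growth and cross-linking) stood at 40.5.

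The other 4 genes were low. Ecm2, a matrix protein related to decorin, had a mean of 4.49 normalized CPM per kb, and Prelp, which tethers basement membranes to connective tissue, had 2.45. Podn (podocan) had 1.74, and Omd (osteomodulin, a mineral-binding member best known in bone) had 0.881. The ranges of Dcn and Lum over the 13 libraries did not overlap. All other neighbours in the order overlapped in range: Lum was above Aspn in 13 of 13 libraries and Ogn above Fmod in 13 of 13, while Aspn was above Bgn in 9 of 13 and Bgn above Ogn in 8 of 13, so the order of those last 3 was not settled by these libraries. When levels were divided by all annotated exon bases instead, Dcn and Lum still ranked 1 and 2, and Bgn moved from rank 4 to rank 6. The means were then 247 for Dcn and 131 for Lum, so the width of the margin depends on the length chosen.

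**Figure D1:**
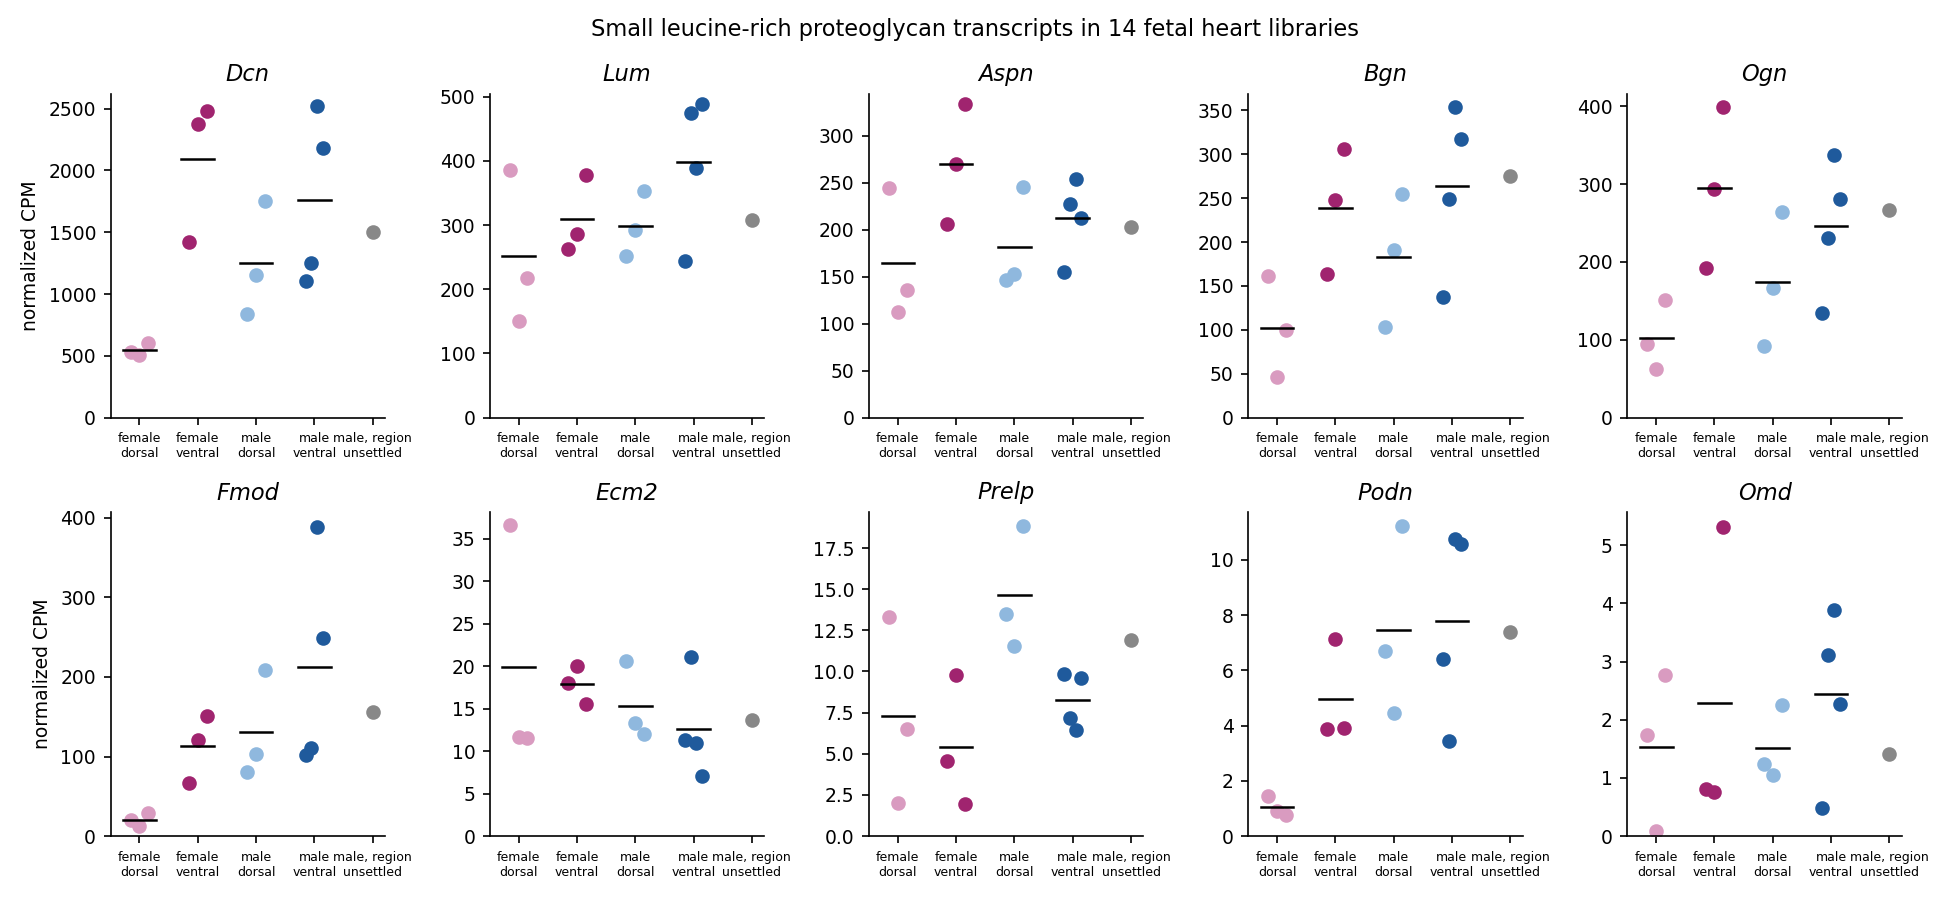
Normalized CPM (linear axis from 0, scaled separately in each panel) of the 10 genes, ordered by level per kb, in female dorsal, female ventral, male dorsal and male ventral libraries; each dot is a library, black bars are group means, and the grey dot is the male library whose labels name both regions. For Dcn, Fmod and Podn the 3 female dorsal dots sit below every other dot.

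In female hearts 5 of the 10 genes rose on the ventral side and none fell, where 14.5% of the 14411 genes tested rose and 27.8% were called in either direction. Those 5 were Dcn, Fmod, Ogn, Podn and Bgn. The median log2 change of the 10 genes was 1.05, against 0.01 over all genes tested. All 10 passed the filter of 1 normalized CPM in at least 3 libraries. Podn passed only through the ventral libraries in which it was high, since 2 of its 3 dorsal values were under 1, so its place among the 5 and in the median carries no weight, and 4 of the other 9 genes rose. The 5 genes that rose also had ventral and dorsal libraries that did not overlap, which was true of 44.8% of all genes tested in either direction.

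Decorin was tight on the dorsal side. Dcn stood at 529, 506 and 606 normalized CPM in female dorsal pools 1 to 3 and at 1420.3, 2373 and 2485 in the ventral ones. The lowest ventral library was thus far above the highest dorsal library, and the dorsal libraries lay close together. The ventral side was higher by 1.89 ± 0.23 on the log2(normalized CPM + 1) scale (SE, n = 3 and 3), a 3.72-fold difference with a 95% interval of 2.60 to 5.32 (limma, adjusted p = 0.00081).

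Biglycan, the closest relative of decorin, rose less evenly. Bgn stood at 161, 46.3 and 99.8 normalized CPM dorsally and at 163, 248 and 306 ventrally. Dorsal pool 1 and ventral pool 1 were nearly equal, while pools 2 and 3 differed widely. The log2 difference was 1.34 ± 0.39 (limma, adjusted p = 0.030), and the call was lost with edgeR (adjusted p = 0.057; 25.1% of all genes called), with eBayes without a trend (adjusted p = 0.073) and without any of female dorsal pool 2, female dorsal pool 3, female ventral pool 2 or female ventral pool 3, where the difference ran from 0.86 upward. Aspn stood at 244, 112 and 136 dorsally and at 205, 270.2 and 334 ventrally. Its dorsal pool 1 was above its ventral pool 1, so its groups overlapped, and its log2 difference of 0.77 (95% interval 0.15 to 1.38) was not called (limma, adjusted p = 0.064). With the pool number as a replicate block it was called (adjusted p = 0.049; 29.6% of all genes called), as it was with the GC and length trend removed (0.86, adjusted p = 0.046) and without female dorsal pool 1 or female ventral pool 1.

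Fibromodulin showed the largest female difference of the 10 genes. Fmod stood at 19.9, 12.1 and 29.3 normalized CPM in the dorsal pools and at 66.9, 121 and 151 in the ventral ones. Its groups were far apart, and each ventral pool exceeded the dorsal pool of its number. The log2 difference was 2.42 ± 0.34, a 5.33-fold difference with a 95% interval of 3.14 to 9.07 (limma, adjusted p = 0.0016), and it was called in all 18 alternatives.

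Lumican, which binds collagen at the same region as fibromodulin, gave other values. Lum stood at 385, 151 and 218 normalized CPM dorsally and at 263, 285 and 379 ventrally. Its highest library of the 6 was dorsal pool 1, and the groups overlapped. The log2 difference was 0.39 with a 95% interval of −0.27 to 1.05 (limma, adjusted p = 0.36); without female dorsal pool 1 it was 0.75 and was called (adjusted p = 0.035), and without female dorsal pool 2 it was 0.073 and without female ventral pool 3 it was 0.23.

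Ogn rose together with decorin. It stood at 94.9, 61.8 and 151 normalized CPM dorsally and at 193, 294 and 399.5 ventrally, a log2 difference of 1.55 ± 0.33 (limma, adjusted p = 0.0080). Podn, whose product binds collagen I and restrains smooth muscle growth, stood at 1.45, 0.898 and 0.774 dorsally and at 3.89, 7.12 and 3.90 ventrally. For both genes every ventral library was above every dorsal library. Podn rested on few reads, between 15 and 98 in these 6 libraries, and its log2 difference of 1.52 ± 0.34 (limma, adjusted p = 0.010) understates the change of so low a gene.

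The remaining 3 genes showed no called regional change in female hearts. Prelp stood at 13.3, 1.99 and 6.51 normalized CPM dorsally and at 4.57, 9.80 and 1.96 ventrally, and its log2 difference was −0.28 (95% interval −1.63 to 1.06). Ecm2 stood at 36.7, 11.7 and 11.5 dorsally and at 15.6 to 20.1 ventrally, with a log2 difference of 0.05 (−0.82 to 0.92) that turned below 0 with edgeR, quantile normalization and removal of the GC trend. Omd ran from 0.0817, which is 1 read, to 2.77 dorsally and from 0.759 to 5.31 ventrally, with a log2 difference of 0.28 (−1.05 to 1.62). These 3 genes varied so much between pools of a side that their intervals span changes in both directions.

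**Figure D2:**
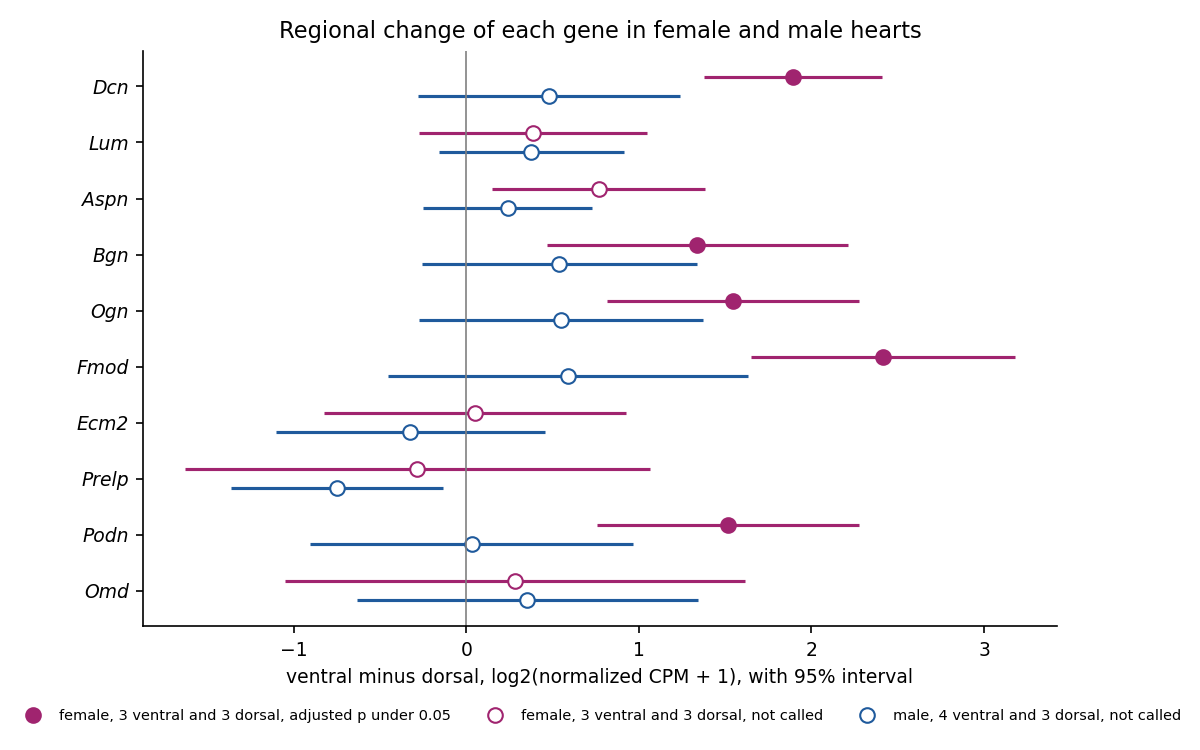
Ventral minus dorsal difference of each gene on the log2(normalized CPM + 1) scale, with its 95% interval from limma, in female (purple) and male (blue) hearts; filled dots have an adjusted p under 0.05. The 5 filled dots, all female, lie between 1.34 and 2.42, and the male dots lie between −0.75 and 0.59.

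In male hearts no member was called, and neither was any gene of the 14917 tested (0%; limma), although 2083 genes (14%) had an unadjusted p under 0.05. edgeR also called 0 (0%), with 1810 genes (12.1%) at an unadjusted p under 0.05. With the pool number as a replicate block limma called 76 genes (0.509%), of which no member was part. The median log2 change of the 10 genes was 0.37, against 0.03 over all genes tested.

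Male ventral pool 7 stood apart in markers of other cells. Its summed endothelial markers were at 153 normalized CPM against 813 to 837 in the other 3 male ventral libraries, its smooth muscle markers at 460 against 840 to 1463, and its erythroid markers at 291 against 33.6 to 68.1. All 6 endothelial markers were lower ventrally in males in their estimates, with a median of −0.90 in the fit that includes this library. Their sum ran from 948 to 1042 in the male dorsal libraries, so the other 3 ventral libraries lay much nearer to these than pool 7 did. Without that library the male log2 differences were 0.35 for Dcn, 0.44 for Fmod, 0.46 for Ogn, 0.42 for Bgn and −0.82 for Prelp, none of them called.

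The most abundant genes overlapped between the sides. Dcn stood at 835, 1153 and 1755 normalized CPM in male dorsal pools 4 to 6 and at 1104, 1251, 2522 and 2182 in ventral pools 4 to 7, a log2 difference of 0.48 (95% interval −0.28 to 1.24; limma, adjusted p = 0.53). Fmod stood at 81.1, 103 and 209 dorsally and at 103, 111, 389 and 249 ventrally, a difference of 0.59 (−0.45 to 1.63; adjusted p = 0.58). For both genes pool 6 gave the highest value of its side, and in every one of the 3 pools with both sides the ventral value was the higher.

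The same held for Ogn and Bgn. Ogn stood at 91.6, 167 and 264 dorsally and at 134, 231, 337 and 281 ventrally. Bgn stood at 103, 191 and 254 dorsally and at 137, 249, 354 and 318 ventrally. Their log2 differences were 0.55 and 0.54, with intervals of −0.28 to 1.37 and −0.26 to 1.34, and within a pool they ran from 0.35 to 0.55 for Ogn and from 0.38 to 0.48 for Bgn. With the pool as a block neither was called (limma, adjusted p = 0.15 and 0.17). Leaving out 1 library moved these estimates widely. They ran from 0.15 (without male dorsal pool 4) to 0.91 (without male dorsal pool 6) for Ogn and from 0.18 (without male dorsal pool 4) to 0.83 (without male ventral pool 4) for Bgn. Likewise they ran from 0.22 (without male dorsal pool 4) to 0.76 (without male dorsal pool 6) for Dcn and from 0.23 (without male ventral pool 6) to 0.99 (without male dorsal pool 6) for Fmod.

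Lum stood at 251, 292 and 353 normalized CPM in male dorsal libraries and at 244, 475, 389 and 488 in ventral ones, a log2 difference of 0.38 (−0.16 to 0.91) close to its female value. Aspn stood at 146, 153 and 245 dorsally and at 155, 227, 254 and 212 ventrally, a difference of 0.24 (−0.25 to 0.73). The ranges of the sides overlapped for both genes. Podn stood at 6.70, 4.45 and 11.2 dorsally and at 6.42, 3.43, 10.8 and 10.6 ventrally, a difference of 0.03 (−0.91 to 0.97).

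Prelp alone among the 10 genes had male sides that did not overlap, which was true of 14% of all genes tested, and it was lower ventrally. It stood at 13.5, 11.5 and 18.8 normalized CPM dorsally and at 9.85, 7.15, 6.44 and 9.59 ventrally, so all 4 ventral libraries were under all 3 dorsal ones. The log2 difference was −0.75 (95% interval −1.36 to −0.13), with an unadjusted p of 0.022 and an adjusted p of 0.31 (limma). Ecm2 ran from 12.1 to 20.6 dorsally and from 7.12 to 21.1 ventrally, and Omd from 1.05 to 2.25 and from 0.486 to 3.89. The library of male pool 7 with both regions in its labels stood at 1503 for Dcn, 156 for Fmod, 309 for Lum and 11.9 for Prelp, and no member was called in male hearts when it was taken as dorsal or as ventral.

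The difference between the sexes in the regional change was then tested itself, as the male change minus the female change. No member was called (limma), while 431 of 15772 genes were (2.73%) and 2428 genes (15.4%) had an unadjusted p under 0.05; edgeR called 380 genes (2.41%) and no member. Of the called genes 97 were below 0 (0.615%). The values of Dcn, Fmod and Podn were −1.42 ± 0.46, −1.82 ± 0.67 and −1.49 ± 0.57, with adjusted p of 0.13, 0.19 and 0.21 and unadjusted p of 0.0074, 0.016 and 0.020. With the pool number as a replicate block, 804 genes were called (5.1%), 361 of them below 0 (2.29%), and 3 members were among these: Dcn at −1.55 (adjusted p = 0.0036), Fmod at −1.97 (adjusted p = 0.0031) and Ogn at −1.09 (adjusted p = 0.031). The smaller male change of these genes was thus called only in fits with the block.

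For Lum and Omd the estimates were near 0. The change of Lum differed between the sexes by −0.01, with a 95% interval of −0.91 to 0.89. Omd differed by 0.07 (−1.62 to 1.76), an estimate that turned below 0 with a pseudocount of 0.1, with voom and with removal of the GC trend.

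Between the sexes, with region as a covariate, 2 of the 10 genes were higher in males, where 4.4% of 15772 genes were higher in males and 10.9% were called in either direction. Fmod ran from 12.1 to 151 normalized CPM in the 6 female libraries (median 48.1) and from 81.1 to 389 in the 7 male libraries (median 111). The 3 female dorsal libraries were below every male library, and the female ventral libraries overlapped with the male ones. Female and male means of Fmod were 20.4 and 131 dorsally and 113 and 213 ventrally, so the gap was wider on the dorsal side. The male values were higher by 1.61 ± 0.40 on the log2 scale, a 3.06-fold difference with a 95% interval of 1.7 to 5.51 (limma, adjusted p = 0.017), called in all 27 alternatives.

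Podn ran from 0.774 to 7.12 in female libraries and from 3.43 to 11.2 in male libraries, again with the female dorsal libraries below all male ones. Its female and male means were 1.04 and 7.45 dorsally and 4.97 and 7.79 ventrally. Its log2 difference was 1.19 ± 0.34 (limma, adjusted p = 0.032), a call lost in 13 of 26 alternatives, among them voom and leaving out female dorsal pool 1, 2 or 3, female ventral pool 1 or 3, male dorsal pool 4 or 6, or male ventral pool 6 or 7, where the difference was at least 0.98. Prelp was higher in males by 0.92 (95% interval 0.17 to 1.66; adjusted p = 0.11), a call gained without female ventral pool 2 (adjusted p = 0.043). The other 7 genes differed by −0.39 to 0.48, and each of their intervals included 0. No member had female and male libraries that did not overlap, which was true of 3.91% of all genes. Since the epicardial marker list also had 6 of 10 genes higher in males, its part in these differences was not tested.

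Other transcripts of fibroblasts were followed beside the family. In female hearts 7 of 9 fibroblast markers outside the family rose ventrally, led by Col1a1 at 2.46, Col1a2 at 2.79, Col3a1 at 2.35 and the collagen receptor Ddr2 at 1.34, while Tcf21 at 0.58 and Postn at −0.01 were not called. Their mean over the list rose by 1.39 on the log2 scale in female hearts and by 0.52 in male hearts. Of the 5 called genes, Dcn and Fmod had differences above that female mean by more than 0.5, and Bgn had one below it. All 10 epicardial markers rose as well, by 1.08 to 2.81. Those with the smallest adjusted p (limma) were Upk1b at 2.42, Krt19 at 2.21, Upk3b at 2.37 and the retinoic acid synthesizing enzyme Aldh1a2 at 2.13. Of 6 macrophage markers 5 rose (Csf1r at 1.90, C1qa at 2.08, C1qb at 2.02, Mrc1 at 1.80). Of the 7 identifiers of lymphatic markers 5 rose, among them Pdpn at 1.74 and Lyve1 at 3.34. Of 6 smooth muscle and pericyte markers Rgs5 (−1.05), Cnn1 (−1.28) and Myh11 (−1.68) fell and Pdgfrb (0.59) rose. None of 6 blood endothelial, 5 valve and 2 Schwann cell markers tested was called, and 1 of 3 erythroid markers fell (Alas2 at −1.01). Of 10 cardiomyocyte markers 2 rose (Ttn at 1.40 and Ryr2 at 0.65). The other 8 had estimates below 0, none of them called, and the median of the list was −0.23. In male hearts none of these lists had a called gene. The part of cell composition in the values of the family was not tested.

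When every library was set relative to its own mean over the fibroblast markers, the female difference of all genes moved to a median of −1.38, and the family split. Fmod stayed higher ventrally relative to the mean of the markers, by 1.03 (limma, adjusted p = 0.026), where 0.791% of all genes did. The markers themselves were split in female hearts, with uncentred changes from −0.01 to 2.79. The uncentred change of Fmod, 2.42, lay within that range, so its excess is over the mean and not over each marker. Dcn at 0.51, Ogn at 0.16, Podn at 0.13 and Bgn at −0.048 were no longer called. Prelp at −1.67 (adjusted p = 0.0021), Ecm2 at −1.34 (adjusted p = 0.0066) and Lum at −1.001 (adjusted p = 0.037) were called lower relative to the markers, as were 70.3% of all genes. Between the sexes Fmod remained higher in males on this scale, by 1.17 (adjusted p = 0.0081), where 0.564% of all genes were.

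Across the 13 libraries the log2 values of Bgn, Dcn, Fmod and Ogn moved with the mean of the fibroblast markers (Pearson r of 0.95, 0.92, 0.90 and 0.89), while Prelp had 0.17 and Ecm2 −0.09. These are descriptions over libraries that share their groups and their composition. Within the 6 female libraries r was 0.93 for Dcn, 0.95 for Fmod and 0.74 for Lum, and within the 7 male libraries it was 0.87, 0.80 and 0.82. Podn had 0.91 among female and 0.27 among male libraries. Prelp had 0.11 among female and −0.69 among male libraries, and Ecm2 had 0.33 and −0.50.

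**Figure D3:**
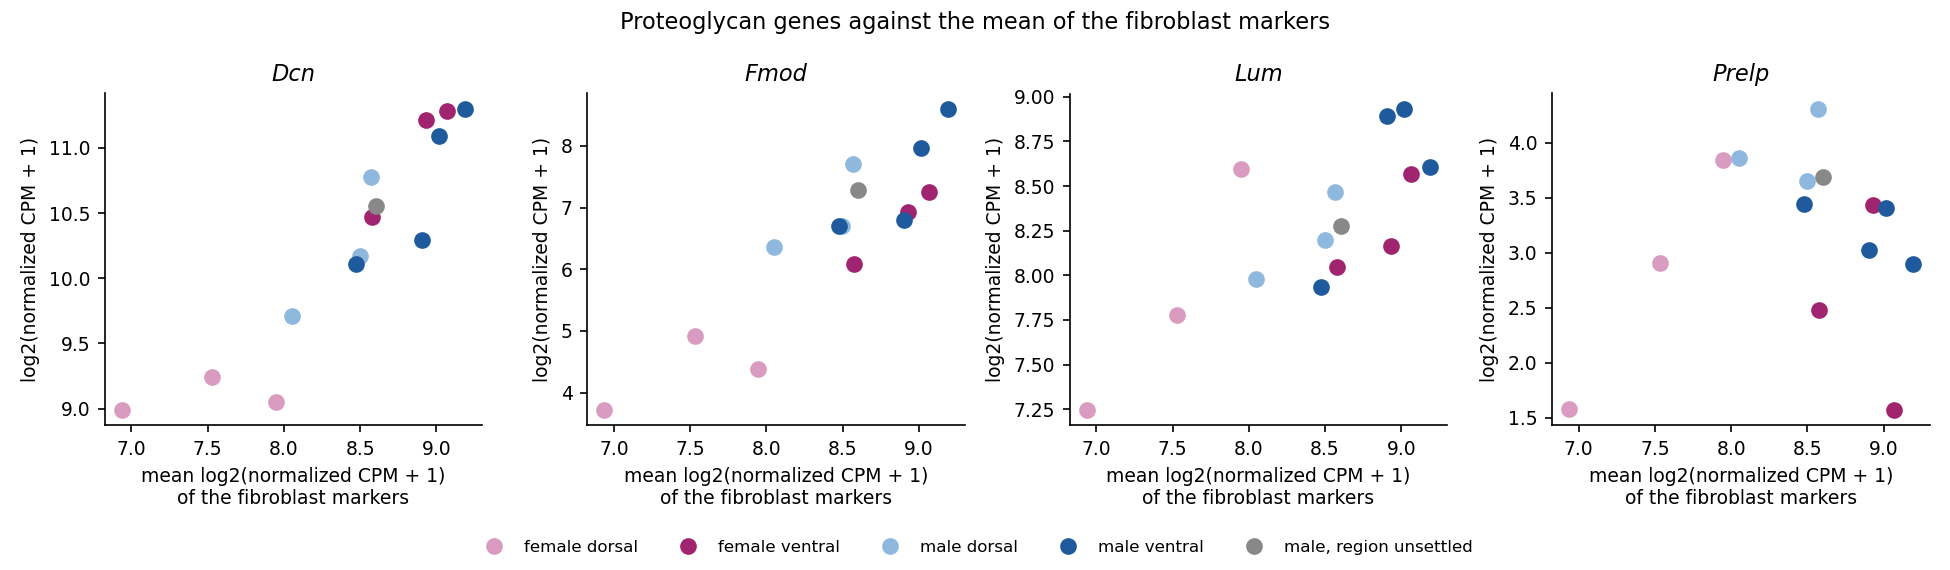
Log2(normalized CPM + 1) of Dcn, Fmod, Lum and Prelp (vertical axes) against the mean log2(normalized CPM + 1) of 9 fibroblast markers (horizontal axes), with a dot per library coloured by group. Dcn and Fmod climb with the markers from the female dorsal libraries upward, in Lum one female dorsal library stands with the high ones, and in Prelp the male libraries run downward (r = −0.69) while the female ones are scattered.

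Within the family the closest pairs over the 13 libraries were Dcn and Ogn (r = 0.93), Ogn and Bgn, Fmod and Podn, and Dcn and Fmod (each r = 0.91). Dcn and Lum, which lie next to each other, had 0.58, Fmod and Prelp had 0.27, and Aspn and Ecm2 had 0.27. The lowest value was that of Fmod and Ecm2 at −0.39. Outside the family, among 14579 genes, the genes most alike in pattern to Dcn were Sparc (osteonectin, a collagen-binding matrix protein; r = 0.99), Ifitm2 and Ildr2, and those most alike to Bgn were the microfibril genes Mfap4 and Mfap2 and the mineralization inhibitor Mgp (r from 0.96 to 0.98; Mfap4 is also 1 of the 9 fibroblast markers). Fmod was most like Smoc2, Serping1 and Ecrg4, Lum most like Sox5, Srpx2 and Csdc2, Ogn most like Plxdc2, Flrt1 and Cfi, Aspn most like Daam2, Ikbip and Itgav, and Podn most like Bicdl1, Il17re and Praf2. The best matches of Omd (Rbms3, Pex11a and Folh1), Ecm2 (Mdga1, Magt1 and Robo1) and Prelp (Rcl1, Smarcc2 and Fbxo42) were weaker, at 0.90, 0.87 and 0.86 for the first of each. All these matches were picked as the highest of many genes. Differences between the groups enter each r, and r within a sex or group was not computed for them.

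Neighbours on a chromosome had been seen to differ in their changes, and their ratio was then taken within each library, which removes depth and any scaling of a library. Since the same values prompted these ratios, they are a description with no test. The ratio of Fmod to Prelp was 1.50, 6.10 and 4.49 in female dorsal pools 1 to 3 and 14.7, 12.3 and 77.0 in the ventral ones. In male hearts it was 6.01, 8.93 and 11.1 dorsally and 10.4, 15.4, 60.3 and 26.0 ventrally. The female sides did not overlap, the male sides did, and the ventral ratio was higher in 6 of the 6 pools with both sides.

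Averaged over the sexes the ratio of Fmod to Prelp was higher ventrally by 2.11 on the log2 scale, by 2.80 within females and by 1.41 within males. Leaving out 1 library at a time gave 1.69 to 2.35.

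The ratio of Dcn to Lum was 1.37, 3.36 and 2.78 in female dorsal pools and 5.40, 8.32 and 6.56 in the ventral ones. Male libraries gave 3.32, 3.94 and 4.97 dorsally and 4.52, 2.63, 6.49 and 4.47 ventrally. The female sides did not overlap, whereas the male ventral libraries included both the lowest and the highest male value. The log2 difference was 1.51 in females, 0.10 in males and 0.80 averaged over both sexes. Aspn to Ecm2 gave 0.65 over both sexes, and the 2 ratios to Omd gave −0.21 for Aspn and 0.33 for Ogn. In each of these the female sides overlapped.

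**Figure D4:**
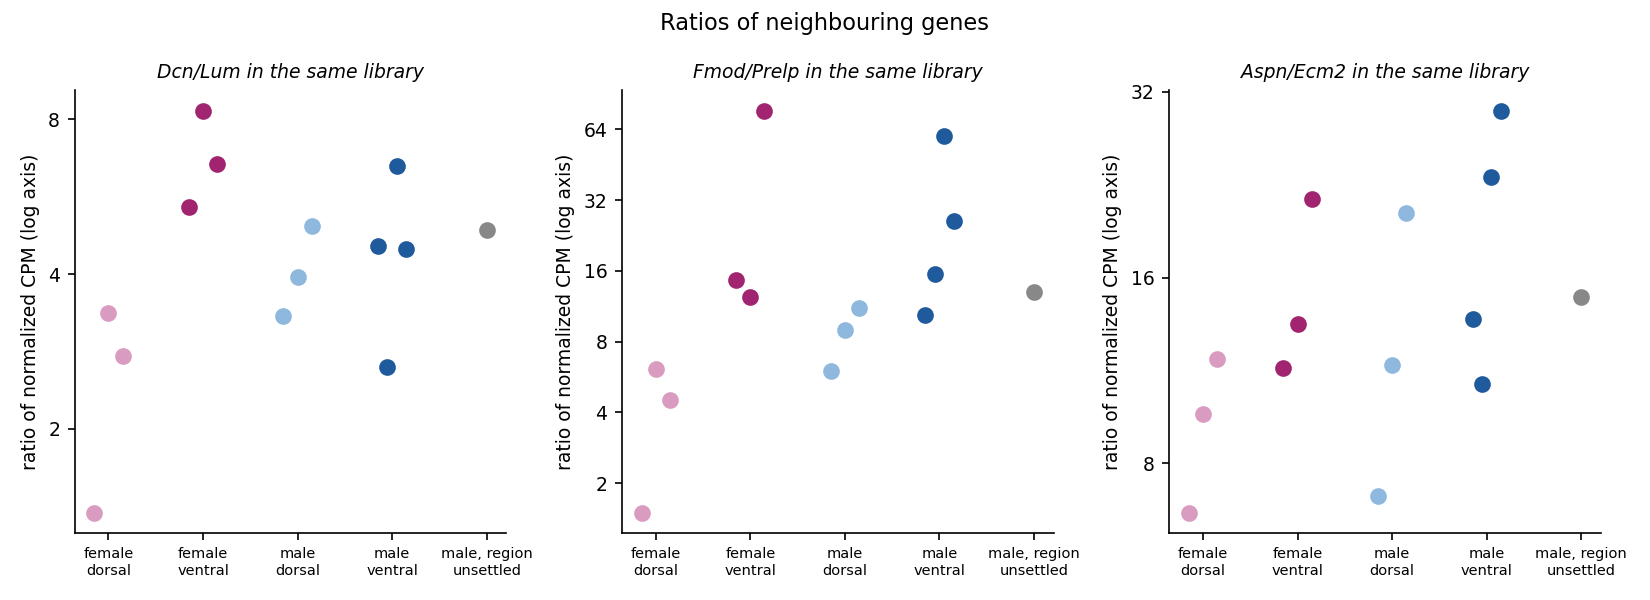
Ratio of normalized CPM of neighbouring genes in the same library (log axis) for Dcn over Lum, Fmod over Prelp and Aspn over Ecm2, with a dot per library in each group and the grey dot for the male library whose labels name both regions. In the first 2 panels the female dorsal dots lie between 1.37 and 3.36 and between 1.50 and 6.10, under all female ventral dots.

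The make-up of the family was then expressed as shares. Per kb of the principal transcript, a choice that raises Dcn, it made up 43.7% to 64.1% of the summed level of the 10 genes in female dorsal libraries. In female ventral libraries the share of Dcn was 68.7% to 73.0%. The share of Lum was 13.7% to 22.9% dorsally and 6.30% to 9.14% ventrally, and that of Aspn 9.58% to 15.2% and 6.28% to 7.51%. The share of Ecm2 was 0.526% to 1.48% dorsally and 0.211% to 0.426% ventrally. None of these ranges overlapped between the female sides, whereas the shares of Ogn, Bgn, Prelp, Omd and Podn did overlap. By value, 44.8% of all genes tested had female sides that did not overlap, and no such rate was computed for shares. In male hearts the share of Dcn was 62.7% to 65.0% dorsally and 57.3% to 67.8% ventrally, that of Lum 9.40% to 13.6% and 7.51% to 15.6%, and that of Fmod 3.22% to 4.36% and 2.85% to 5.89%, all overlapping. The share of Fmod was 0.865% to 1.54% in female dorsal and 1.82% to 2.36% in female ventral libraries, below every male library. Shares add to a whole, so a larger share of Dcn lowers those of the others.

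The windows before the starts of these neighbours are shown because Fmod and Prelp lie beside each other and differ in their female change, and Ogn and Omd lie beside each other and differ in level. RefSeq windows of build GRCm38.p6 were matched for 8 of the 10 genes, leaving out Dcn and Lum. The 250 bases before the start are printed 5′ to 3′ on the strand of the gene, with TATAAA and CAGAC on either strand in capitals. CAGAC is the core that SMAD proteins of the TGFβ pathway are known to bind. The windows are chr1:134037004-134037253 (plus strand) for Fmod, chr1:133921402-133921651 (minus strand) for Prelp, chr13:49607765-49608014 (plus strand) for Ogn and chr13:49582212-49582461 (plus strand) for Omd.

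Fmod: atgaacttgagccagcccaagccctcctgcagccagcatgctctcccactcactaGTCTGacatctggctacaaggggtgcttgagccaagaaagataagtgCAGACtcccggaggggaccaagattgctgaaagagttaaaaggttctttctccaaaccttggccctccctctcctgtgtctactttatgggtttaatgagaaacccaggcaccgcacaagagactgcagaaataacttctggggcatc

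Prelp: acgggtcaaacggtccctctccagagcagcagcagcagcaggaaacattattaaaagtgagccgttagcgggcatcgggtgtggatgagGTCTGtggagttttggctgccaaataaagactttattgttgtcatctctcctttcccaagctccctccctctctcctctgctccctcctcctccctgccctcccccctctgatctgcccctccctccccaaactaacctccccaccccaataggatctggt

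Ogn: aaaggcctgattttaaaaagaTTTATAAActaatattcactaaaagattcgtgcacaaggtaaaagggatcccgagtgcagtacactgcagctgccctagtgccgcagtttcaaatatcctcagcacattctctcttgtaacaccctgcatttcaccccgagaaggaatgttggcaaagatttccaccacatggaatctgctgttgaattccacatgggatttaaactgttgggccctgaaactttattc

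Omd: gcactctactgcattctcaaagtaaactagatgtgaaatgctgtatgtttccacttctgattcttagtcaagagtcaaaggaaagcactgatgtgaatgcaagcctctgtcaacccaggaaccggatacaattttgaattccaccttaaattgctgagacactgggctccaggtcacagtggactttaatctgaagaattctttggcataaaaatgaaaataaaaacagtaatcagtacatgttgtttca

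CAGAC was found in the windows of Fmod (2 matches) and Prelp (1 match) and in no other member, and in 42.2% of 32851 windows of the same length. TATAAA was found in those of Aspn and Ogn, against 12.4% of all windows; its 2 matches in Ogn overlap on opposite strands. CATTCC, the muscle CAT motif bound by TEAD factors, was in that of Ogn (12.6% of all windows), TGACTCA of AP-1 in none of the 8 (4.46%), and the E-box CANNTG in those of Fmod, Podn, Aspn, Ogn and Bgn (66.2%). The GC content was 51.2% for Fmod, 55.6% for Prelp, 42.0% for Ogn and 38.4% for Omd, against a median of 52.4% over all windows. Such matches describe the letters in these windows and nothing about binding.

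Genes around the family in the matrix were followed through lists. Of 13 collagens and cross-linking enzymes of the fibrils on which these proteoglycans sit, 3 of them also among the fibroblast markers, 12 rose ventrally in female hearts, with a median log2 change of 1.94 and Col5a1 (1.97), Col6a1 (1.80), Col6a2 (1.94) and Col14a1 (2.30) at the smallest adjusted p (limma, 0.000334 to 0.000609). These 4 genes were also the ones of the list whose change was smaller in males by the test of the difference (limma, adjusted p from 0.0080 to 0.015), while no member of the family was called there. Of 4 tested proteinases and enhancers that trim matrix propeptides 3 rose (Bmp1 at 1.34, Pcolce at 0.89 and Furin at 0.91).

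The counts for the enzymes that build the sugar chains stand beside the 14.5% of all genes that rose in female hearts, and show nothing particular to these small lists. Of 6 enzymes of the linker to which the chains are attached 1 rose (B3gat3 at 0.72), of 14 chondroitin and dermatan sulfate enzymes 2 rose (Chpf at 1.29, Dsel at 1.48), and of 6 keratan sulfate enzymes 2 rose (B4galt1 at 1.32, B3gnt7 at 2.90). Their medians were 0.29, 0.26 and 0.30, against 0.01 over all genes. Of 10 growth factors and receptors that decorin or biglycan are known to bind 5 rose, namely the endocytic receptor Lrp1 (1.79), Igf1r (0.69), Tgfb3 (0.96), Met (1.41) and Egfr (1.46). None of the genes in these lists was called in male hearts. Egfr was higher in males by 3.25 (limma, adjusted p = 0.000605), and Cenpp, across the chromosome 13 row, changed by −0.24 in females (adjusted p = 0.44). Of 9 other genes of the family 4 were listed, and the only one tested in female hearts, Tsku, was not called at 0.17.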

How the data were processed

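The 10 genes, the marker lists and the tests were chosen with earlier results of these data known. Poly(A) RNA of 14 libraries was sequenced as single reads of 60 bases. Per the methods and labels, the authors trimmed adapters with Cutadapt, estimated reads per gene with RSEM (1.3.1 in the processing notes) on GRCm38, then filtered low genes (1 CPM, 3 samples) and used limma to normalize. What was deposited is a signal, normalized CPM, which can move with the makeup of each library. Whole reads were recovered for 100% of values (tolerance 0.02 reads, offset 0.5) and gave each depth; count tests on those reads are alternatives. A strand setting is not given in the sources used here, and 99.9% of the identifiers were in GENCODE M21.

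Values were tested with limma 3.58.1 (trended eBayes, R 4.3.3) on log2(normalized CPM + 1), for genes reaching 1 in 3 or more of the fitted libraries, with Benjamini-Hochberg adjustment over all genes tested and calls under 0.05. Each sex was fitted alone. The difference and the sex comparison used all 4 groups. Named genes are the 10 members, the 3 genes with the highest r to each, and up to 4 genes of each list by adjusted p. Alternatives covered pseudocount, filter, scaling, variance model, edgeR 4.0.16, voom, GC and length, centring on fibroblast markers, the unsettled library, each library left out and the replicate block. Scripts were tested on simulated data. Pool numbers were taken as pairs only in the replicate block, and the main fits left them out. Deviations of ventral and dorsal libraries of a number correlated over 15772 genes at 0.17 to 0.27 in females and 0.17 to 0.43 in males. Libraries of unlike numbers were not compared in this way, so a pairing by hearts is not settled. Ratios of neighbours (numpy 2.4.6) were added after values were seen and are given without a test.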

Additional observations from a re-analysis of the deposited data

Results flagged for a closer look

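Podn was singled out because its sides moved one way in female pools and the other way in male pools 4 to 6. The ventral library was higher in 3 of 3 female pools, by 0.99 to 2.10 on the log2 scale. It was lower in 3 of 3 male pools with settled sides, by values from −0.30 to −0.05. In male pool 7 the ventral library stood at 10.6 normalized CPM, and the library with both regions in its labels at 7.40. The male difference in limma was 0.03. The female rise carries no weight, since Podn passed that filter only through its high ventral libraries. Over the pools with settled sides the mean difference, male minus female, was −1.66. The difference itself did not pass the test, with −1.49 and an adjusted p of 0.21 in limma without the replicate block, and −1.66 and an adjusted p of 0.065 with it. No male ventral library stood apart from the other 3 for any of the 10 genes, and groups of 3 libraries were not examined for this.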

How the results depend on the processing

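The alternatives were run for 40 gene results and 4 counts of called genes, except where a gene failed the filter of a setting (Omd, Podn and Prelp in some). Of the gene results 818 values kept their direction and side of the threshold, 22 lost their call, 14 gained one and 62 changed direction. Fmod in female hearts and between the sexes was called in every alternative, and Dcn in female hearts in all but centring on the fibroblast markers (0.51). The cause of the changes below was not tested.

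In female hearts Ecm2 was −0.037 with quantile normalization, −0.16 with edgeR and −0.041 with the GC and length trend removed, with or without the block. Centring gave −1.001 for Lum, −0.048 for Bgn, −1.11 for Omd, −0.62 for Aspn and −1.34 for Ecm2. In male hearts Podn was −0.10 with quantile normalization, −0.14 with the replicate block, −0.10 with the trend removed and −0.26 with trend and block. Male centring gave −0.045 for Dcn, −0.15 for Lum, −0.17 for Omd, −0.29 for Aspn and −0.49 for Podn.

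For the difference between the sexes, the replicate block, alone or with the trend removed, called 3 members (Dcn, Fmod and Ogn) against 0. Omd was −0.29 with a pseudocount of 0.1, −0.40 with voom, −0.062 with the trend removed, −0.10 with trend and block and −0.0050 with the library of 2 regions as ventral. Lum was 0.021 rescaled by the median of ratios, 0.053 with quantile normalization and 0.12 with edgeR. Centring gave 0.85 for Lum, 0.063 for Bgn, 0.40 for Prelp, 0.34 for Aspn and 0.49 for Ecm2. Between the sexes 1 member in place of 2 was called with a filter on a mean of 10 (Podn not tested), with voom, with the trend removed, with trend and block, and centred, where Dcn was −0.070, Lum −0.10, Ogn −0.25 and Omd −0.26. A pseudocount of 1 on the ratio of Aspn to Omd, an alternative chosen after seeing the data, gave 0.18. The block changed no other call among the 10 genes than those given here and that of Aspn in females, which removal of the trend also called (6 members in place of 5).

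Leaving out 1 library at a time called 4 to 7 members in female hearts, 0 in male hearts, 0 for the difference and 1 to 3 between the sexes. Gene values ran from −0.22 to 0.58 for Ecm2, −0.88 to 0.25 for Prelp and −0.24 to 0.60 for Omd in females, and from −0.25 to 0.34 for Podn in males. The other male ranges stayed on 1 side of 0. The difference ran from −0.37 to 0.30 for Lum, −0.31 to 0.68 for Omd and −0.996 to 0.14 for Prelp. Between the sexes Aspn ran from −0.22 to 0.016, Ogn from −0.016 to 0.37 and Omd from −0.035 to 0.46. Of the ratios, Fmod to Prelp ran from 1.69 to 2.35 and Aspn to Omd from −0.74 to 0.46. Over all genes the female calls went from 4007 to 10249 when centred and to 2158 without female ventral pool 2, and those of the difference from 431 to 804 with the block. Depth limits Omd, with 1 to 97 reads in the 13 libraries, and Podn, with 15 to 269.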
